A study of Mus musculus with 5 samples.

Results

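Epithelial cells made up 247 of the 44772 cells, or 0.552%, in 5 scRNA-seq libraries from lungs of Ms4a3-CreER;R26-tdT mice. They were chosen by their own UMIs, which are counted transcript molecules, as cells with at least 2 UMIs of Epcam, at least 2 UMIs of Krt8 and Krt18 together, and no UMI of Ptprc or Cd68. Epcam encodes an adhesion molecule of epithelial cells, Krt8 and Krt18 encode keratins of simple epithelia, and Ptprc (CD45) and Cd68 mark leukocytes and macrophages. The levels of these genes therefore follow from the choice and are given only as a description.

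The libraries came from PBS-treated (sham) lungs and from lungs at day 3, day 7, day 14 and day 28 postinjury after intratracheal bleomycin, with 1 library at each time. All 5 carry the same alleles, in which Cre driven by the monocyte gene Ms4a3 turns on the tdT reporter once tamoxifen is given, so no library lacks the reporter alleles. The study used adult mice of both sexes on a mixed genetic background, and the sources used here do not give how many lungs, or of which sex, entered a library. The suspensions were labelled as immune cells and were prepared by enzyme digestion, filtering and red blood cell lysis, so that shares of epithelial cells describe what this preparation kept and not the makeup of the lung. The libraries held 131210167 UMIs (PBS), 89769386 (day 3), 151234640 (day 7), 144984156 (day 14) and 167506186 (day 28). With 1 library per time there is no replicate, no difference between times was tested, and each interval given is an exact 95% interval that covers counting error only.

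The lining of the lung changes along its length. In the airways, ciliated cells beat mucus outward, while secretory cells make secretoglobins, antimicrobial proteins and mucins, and rare neuroendocrine cells sense the airway and release peptides. In the alveoli, flat type 1 (AT1) cells form the surface for gas exchange, and cuboidal type 2 (AT2) cells make surfactant and can give rise to AT1 cells after injury through keratin-rich transitional states.

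The 247 cells were spread unevenly over the libraries. There were 10 of 9238 cells in PBS (0.108%, interval 0.0519 to 0.199), 4 of 8004 at day 3 (0.0500%, 0.0136 to 0.128), 107 of 9493 at day 7 (1.13%, 0.925 to 1.36), 74 of 7757 in the day 14 library (0.954%, 0.750 to 1.20) and 52 of 10280 in that of day 28 (0.506%, 0.378 to 0.663). The intervals of day 7 and day 14 overlapped each other and lay above those of the other 3 libraries, and the interval of day 28 lay above those of PBS and day 3, which overlapped. Depth differed as well. Epithelial cells had a median of 17892 UMIs in PBS, then 36620.5, 13378, 18113.5 and 14366.5 at days 3, 7, 14 and 28, and the lowest barcode of the day 7 library had 4624 UMIs, against 500 to 502 in the other libraries. With every cell reduced at random to 2000 UMIs before the choice, the shares were 0.0349% in PBS, then 0.0391%, 0.527%, 0.486% and 0.161% at days 3, 7, 14 and 28. Libraries shared between 16 and 31 cell barcodes in pairs, none of them between the epithelial sets. A doublet score marked 21 of the 247 cells (8.50%), of which 13 came from day 14, and these cells were kept.

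**Figure D1:**
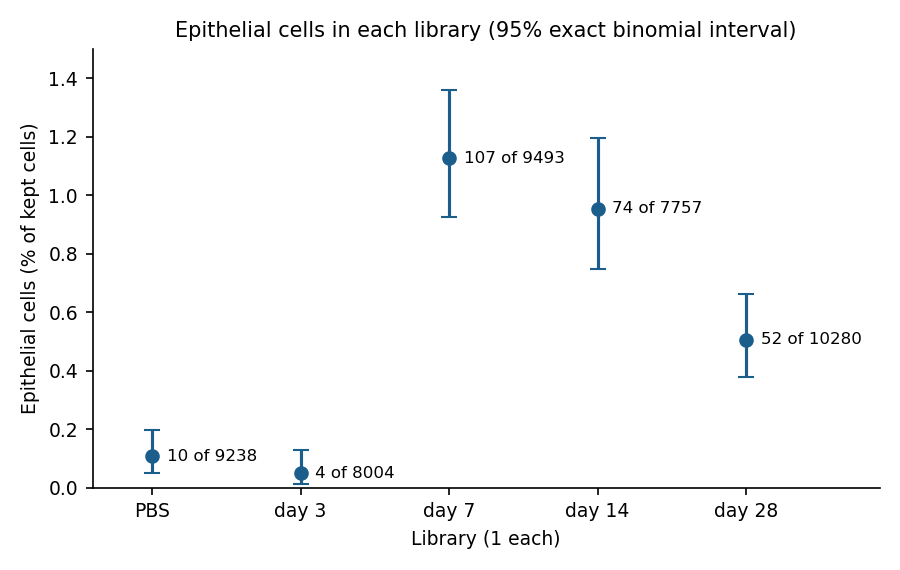
Share of kept cells that were chosen as epithelial (y axis, percent) in each of the 5 libraries (x axis), with bars for exact 95% binomial intervals that cover counting error only. Day 7 (1.13%) and day 14 (0.954%) sit highest, day 28 (0.506%) is between, and PBS (0.108%) and day 3 (0.0500%) are lowest.

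The exclusion of leukocytes removed more candidate cells than it left. Of 586 cells with enough Epcam and keratin UMIs, 94 had Ptprc alone, 97 had Cd68 alone and 148 had both, and the doublet score marked 41.9% of the cells with both. The 97 cells lost on Cd68 alone contained Sftpc, the surfactant protein gene of AT2 cells, at 7345 CPM (counts per 1e+06 UMIs of the summed cells), against 3517 CPM in the 247 cells kept. Of those 97 cells, 87.6% had a UMI of the epithelial cadherin gene Cdh1, and 18.6% were marked as doublets. At the Epcam limit, 38 chosen cells had exactly 2 Epcam UMIs, and 47 cells with 1 Epcam UMI that met the other limits fell just outside, with Cdh1 in 68.4% and 68.1% of cells. Only 4 cells fell just outside on 1 keratin UMI.

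The chosen cells carried other epithelial genes, and leukocyte genes were low except among the neuroendocrine-like cells described further on. There, 1 of 8 cells held 74 of the 86 UMIs of pan-leukocyte markers, and 1 cell held 30 of the 32 UMIs of neutrophil markers. Cdh1, which the choice did not use, was detected in 222 of 247 cells (89.9%). The summed level of the 6 pan-leukocyte markers other than Ptprc was 208 CPM in PBS, then 152, 163, 198 and 128 at days 3, 7, 14 and 28, with Tyrobp or Fcer1g the most abundant and all 6 genes detected in each library. In 1863 B cells of the same libraries (chosen by Cd79a, Ptprc and no Epcam and used here as cells that should lack epithelial genes), the same markers summed to between 5649 and 7367 CPM. Of the 9 macrophage markers other than Cd68, led by Chil3, the sum in epithelial cells was 555, 43.3, 170, 273 and 282 CPM in the same order of libraries, and it was 5054, 1161, 4999, 2393 and 5646 CPM in B cells. The 6 endothelial markers summed to 22.7 CPM over all libraries and the 7 lymphocyte markers to 10.1 CPM. The 6 fibroblast markers were at 0 in PBS and at 1306 CPM at day 28, led by Dcn (836 CPM), and at 595 CPM in the B cells of day 28. Of the Dcn UMIs of day 28, 2 cells with mesothelial genes held all but 1, and without these 2 cells the fibroblast markers were at 10.9 CPM. Whether RNA of other cells had a part in the results given here was not tested.

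UMIs of epithelial genes were also found in B cells, and the shares in B cells serve as the background for shares of cells with a UMI. After every cell had been reduced to 2000 UMIs (median before, 15190 UMIs in epithelial cells and between 3782 and 9105 UMIs per library in B cells; 2 and 53 cells were left out as shallower), shares were compared within libraries, since 657 of 1810 B cells but 4 of 245 epithelial cells came from day 3. Foxj1 was detected in 19.6% of epithelial cells and 0.862% of B cells at day 7 and in 27.5% and 1.19% at day 28, and Ager in 30.8% and 1.15% at day 7 and 41.2% and 0.593% at day 28. For Sftpc the shares were 10.3% (interval 5.24 to 17.7) and 8.62% (5.89 to 12.1) at day 7, 10.8% and 5.26% at day 14, and 31.4% and 7.12% at day 28, and the intervals overlapped at day 7 and day 14. Scgb1a1 was detected in 85.0% of epithelial cells and 82.8% of B cells at day 7, in 73.0% and 68.4% at day 14 and in 52.9% and 65.6% at day 28, with overlapping intervals at each of these times, so that a UMI of Scgb1a1 alone does not mark a secretory cell here. The tdT reporter (feature RFP, taken as tdT) was detected after the reduction in 29.9% of epithelial cells and 27.6% of B cells at day 7, in 35.1% and 28.9% at day 14 and in 35.3% (22.4 to 49.9) and 14.5% (10.95 to 18.8) at day 28, the last without overlap, and in PBS in 0 of 9 epithelial cells and 12.1% of B cells. Its level in the 2 cell types was 29.8 and 143 CPM in PBS and 234 and 510 CPM at day 14. The epithelial level of RFP was below that of B cells in PBS, at day 3 (137 and 163 CPM), at day 7 (156 and 208) and at day 14, and the intervals overlapped at day 3 and at day 28 (203 and 192).

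Clustering of the 247 cells gave 8 groups, and 4 of them took a lineage name from markers. These were ciliated-like cells (45 cells, 18.2%), 2 groups of secretory-like cells (40 and 21 cells) and neuroendocrine-like cells (8 cells). An alveolar cluster of 36 cells scored almost equally on AT1 markers (0.872) and AT2 markers (0.830) and separated into AT1-like and AT2-like cells at a finer resolution, where 21 and 15 of its cells fell. The remaining 3 groups were led by no lineage marker and are called by leading genes, as the Ddit3 Vnn1 cluster (36 cells), the Ctgf Fn1 cluster (31 cells) and the Igfbp6 Sbsn cluster (30 cells). The genes that lead a cluster follow from the clustering and were not tested. No cluster took the name of basal or tuft cells. Basal markers scored 0.785 in the second secretory-like group, below its secretory score of 1.64, while Krt5 was detected in 2 of the 247 cells and Trp63 in 3. Named one by one, 6 cells took the basal name, 5 of them in that group, and 7 cells took the tuft name, although the tuft cell genes Pou2f3 and Il25 had no UMI in any of the 247 cells.

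The makeup differed between libraries. At day 7 the largest group was the Ctgf Fn1 cluster with 25 of 107 cells (23.4%, interval 15.7 to 32.5), followed by 22 Ddit3 Vnn1 cells (20.6%), 21 ciliated-like cells (19.6%; 10.9% with no limit on Ptprc and Cd68), 26 secretory-like cells (24.3% in both groups together) and 1 cell of the alveolar cluster (0.935%, 0.0237 to 5.10). At day 14 the Igfbp6 Sbsn cluster held 20 of 74 cells (27.0%, 17.4 to 38.6), the club secretory-like group 19 (25.7%), the alveolar cluster 13 (17.6%, 9.70 to 28.2) and ciliated-like cells 6 (8.11%, 3.03 to 16.8). At day 28 the alveolar cluster held 20 of 52 cells (38.5%, 25.3 to 52.98) and ciliated-like cells 18 (34.6%, 22.0 to 49.1), whereas no club secretory-like cell was found, which allows a share of up to 6.85%. The interval of the alveolar share at day 7 lay below those of day 14 and day 28, and the interval of the Ctgf Fn1 share at day 7 lay above that of day 14 (4.05%, 0.844 to 11.4) and overlapped that of day 28 (5.77%, 1.21 to 15.9). In PBS, 7 of the 10 cells were secretory-like, 2 were in the alveolar cluster and 1, a shallow cell of 1144 UMIs, fell in the Ddit3 Vnn1 cluster. The 4 cells of day 3 were 3 secretory-like cells and 1 neuroendocrine-like cell. With so few cells, these 2 libraries could not be compared with the others within a lineage. Named one by one by their own marker scores, 16 cells of day 7 (14.95%, 8.80 to 23.1) and 16 of day 14 (21.6%, 12.9 to 32.7) took an alveolar name, with overlapping intervals, and at the finer resolution the alveolar share of day 7 was 6.54%. Of the cells named one by one, 9 named AT1 lay in the Ctgf Fn1 cluster, and 63 of the 247 cells took no name. In that cluster 4 further cells were named mesothelial, 3 tuft and 1 each AT2, ciliated and neuroendocrine, and 12 took no name.

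**Figure D2:**
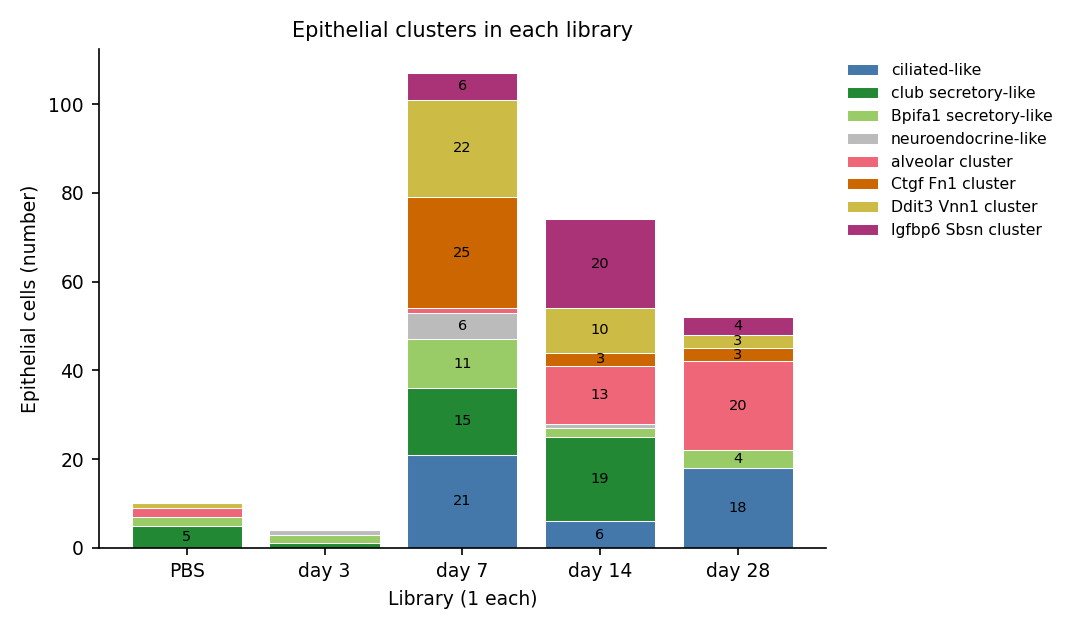
Number of epithelial cells (y axis) of each cluster in each library (x axis), stacked, with counts of 3 or more printed in the bars. Day 7 holds most of the Ctgf Fn1 and Ddit3 Vnn1 clusters (25 and 22 cells), day 14 most of the Igfbp6 Sbsn cluster (20), and day 28 the largest part of the alveolar cluster (20).

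The ciliated-like cells carried Foxj1 in every cell. Foxj1 (GRCm38, chr11:116330704-116335399, minus strand), the transcription factor of motile ciliogenesis, was at 993 CPM at day 7 (interval 882 to 1115), 924 CPM in the day 14 library (746 to 1130) and 944 CPM in that of day 28 (822 to 1080), and its level in single cells ranged from 239.9 to 2041 CPM with a median of 879. The Foxj1 intervals of the 3 libraries overlapped, and B cells stood at 1.55 CPM. The other abundant markers were Tppp3, a tubulin polymerization protein, at 2281 CPM over all 45 cells, Tmem212 at 1401 CPM, the dynein light chain gene Dynlrb2 at 927 CPM and 1110017D15Rik, found in 43 of 45 cells. Dnah5, which encodes an outer dynein arm heavy chain, was at 622 CPM at day 7 (535 to 720) and 962 CPM at day 28 (838 to 1099), without overlap of the intervals. No ciliated-like cell was found among the 14 cells of PBS and day 3.

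Motile cilia genes are regulated by RFX factors, which bind the X-box, and the promoters of the cilia gene list were searched for it because these genes were high together in the ciliated-like cells. The search used the 14-letter RFX X-box on both strands in RefSeq promoters of GRCm38.p6, from 250 bases before to 50 bases after each start. It was found in 5 of 25 genes of the list with a promoter in the table (20%) and in 215 of 27025 genes of all (0.796%), and in none of 9 ciliated, 9 AT2, 10 AT1 and 7 secretory marker genes with a promoter. The matches are shown as 30 bases of the plus strand with the X-box in capitals:
Ccno, chr13:112987575-112987604: gggctgcgGTTGCCACGGTGACgacagacg
Hydin, chr8:110266948-110266977: actctgcgGTTGCTGTGGCAACagatggta
Cfap44, chr16:44394764-44394793: ggagggacGTTGCTATGGCAACcgcagtaa
Spag16, chr1:69826859-69826888: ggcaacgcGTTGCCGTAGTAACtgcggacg
Ift57, chr16:49699199-49699228: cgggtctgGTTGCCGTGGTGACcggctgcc
Of these 5 genes, 4 were detected in most ciliated-like cells. Hydin, which encodes a protein of the central pair of the axoneme, was in 43 of 45 cells at 353 CPM, Cfap44 in 45 at 416 CPM, the axonemal gene Spag16 in 39 at 207 CPM and Ift57, an intraflagellar transport gene, in 38 at 215 CPM. Ccno, which acts in early amplification of centrioles, was the exception, with UMIs in 4 of the 45 cells (27.5 CPM). A match of these letters describes the sequence and does not show binding.

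**Figure D3:**
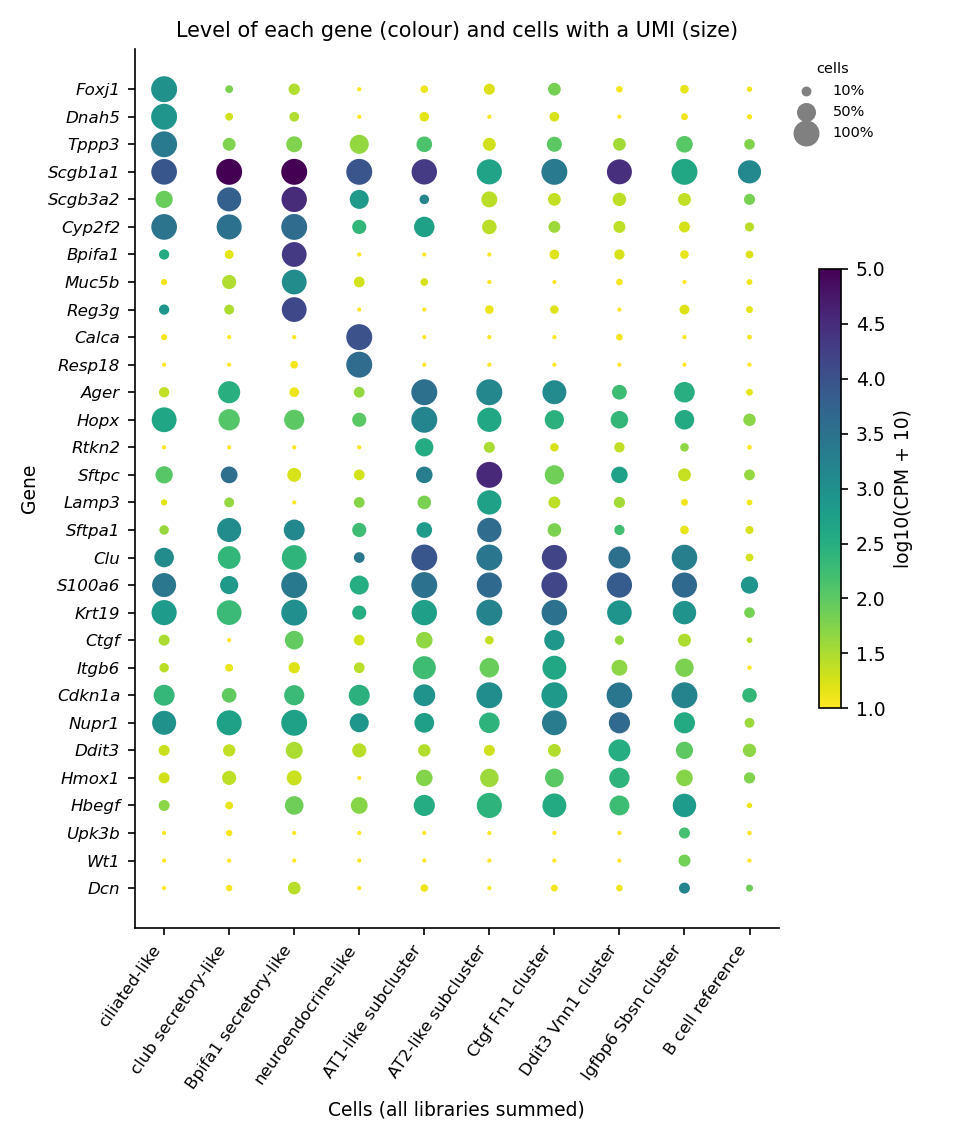
Level of named genes (y axis) in each epithelial cluster and in B cells (x axis), summed over all libraries, with colour for log10(CPM + 10) and dot size for the percent of cells with a UMI. Foxj1 and Dnah5 stand out in ciliated-like cells, Bpifa1 and Reg3g in Bpifa1 secretory-like cells, Calca and Resp18 in neuroendocrine-like cells, Sftpc in AT2-like cells and Rtkn2 in AT1-like cells, while Scgb1a1 was detected in every column.

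The comparison of day 28 with day 7 in ciliated-like cells (18 and 21 cells) asked whether these cells differed late after injury. Genes were called where the CPM differed 2-fold or more and the interval of the ratio excluded no change, among 2322 genes that reached 100 CPM in one or both libraries: 107 (4.61%) were higher and 141 (6.07%) lower at day 28, and 217 of these 248 were still called without the cell richest in each gene. The ciliary program was close to level. Of the 12 ciliated markers none was called in either direction, and of 24 cilia genes tested 1 (Spag16) was higher and none lower, with a median log2 ratio of 0.21 against -0.05 over all genes tested. Without 1 cell of day 7 that the finer resolution set apart, 93 genes were higher and 156 lower, 214 of the 248 calls were shared, and Spag16 was not called. Immediate early genes, which are switched on fast by stress and tissue digestion, were lower at day 28 in 8 of 13 tested, with a median of -1.39, and all 8 were still called without the richest cell. Among them, Fos was at 808 CPM at day 7 and 226 CPM at day 28 (log2 ratio -1.84, interval -2.30 to -1.40), and Jun at 450 and 120 CPM (-1.91, -2.57 to -1.31). In B cells the log2 ratio between the same libraries was -0.36 for Fos and -0.79 for Jun, and in all other cells it was -0.44 and -1.60, so that Jun was lower in other cells too.

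MHC class II genes, which present antigen and are also made by some lung epithelial cells, were lower at day 28 in 4 of 4 tested (median log2 ratio -2.43). Cd74, the invariant chain, was at 1042 CPM at day 7 and 186 CPM at day 28 in ciliated-like cells (-2.48, -2.99 to -2.01), with log2 ratios of -0.22 in B cells and -1.87 in all other cells. H2-Aa was at 323 and 62.1 CPM (-2.38, -3.31 to -1.56). These genes are abundant in leukocytes of the same suspension, and the part of RNA from other cells in their difference was not tested. Of 4 MHC class I genes tested, 2 were lower, namely H2-K1 (2506 and 1130 CPM, -1.15) and H2-D1 (1403 and 581 CPM, -1.27), while their ratios in all other cells were -0.04 and 0.09. B2m (-0.88) and Tapbp (0.60) were not called. Of 12 genes of the alveolar transitional list, 5 were lower at day 28 (S100a6, Areg, Lgals3, Clu and Cdkn1a) and none higher, with a median of -0.70. Markers of other cell types moved as well. Of 4 AT2 markers tested, 3 were lower (Sftpb, Sftpd and Sftpc) and none higher, with a median of -1.39. Of 8 secretory markers, 3 were lower (Bpifa1, Reg3g and Scgb3a1) and none higher. Of these 2 lists, Sftpb, Sftpd and Reg3g were still called without the richest cell. The 1 macrophage marker tested, Chil3, was higher. Of 11 interferon-stimulated genes, 2 were higher (Isg15 and Ifit3, neither called without its richest cell) and 2 lower (Irf7 and Bst2).

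Single genes were also called in both directions. The extracellular chaperone Clu was at 2355 CPM at day 7 and 129 CPM at day 28 (log2 ratio -4.195, -4.78 to -3.66), and it was detected in 14 of 21 and 9 of 18 cells. Clu was also lower in B cells (-2.32) and in all other cells (-2.50). The surfactant gene Sftpb was at 956 and 22.2 CPM (-5.43), with -1.86 in B cells. Id1, an inhibitor of differentiation induced by BMP signals, was at 196 CPM in 11 of 21 cells at day 7 and had no UMI in the 18 cells of day 28, a log2 ratio of -3.88 or lower against the limit of 3 UMIs. Dnajb1, a heat shock co-chaperone, was at 182 and 4.43 CPM (-5.36), and Ltf (lactoferrin) at 117 CPM in 4 cells and at no UMI (-3.14 or lower). In the other direction, the cytochrome P450 gene Cyp2a5 was at 1414 CPM at day 28 and 113 CPM at day 7 (3.64, 3.12 to 4.204; 2.81 without the richest cell), in 12 of 18 and 8 of 21 cells. Dbp, a transcription factor of the circadian clock, was at 133 and 10.3 CPM (3.69, 2.00 to 6.05), whereas its log2 ratio was 0.28 in B cells and 0.01 in all other cells. Gpr155 (2.45) and the cell cycle inhibitor gene Cdkn1c (2.47) were higher as well. Gm8797, a ubiquitin-like pseudogene whose reads can be split with near-identical copies, was higher in these cells (3.76) and in B cells (4.79) and all other cells (4.56).

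**Figure D4:**
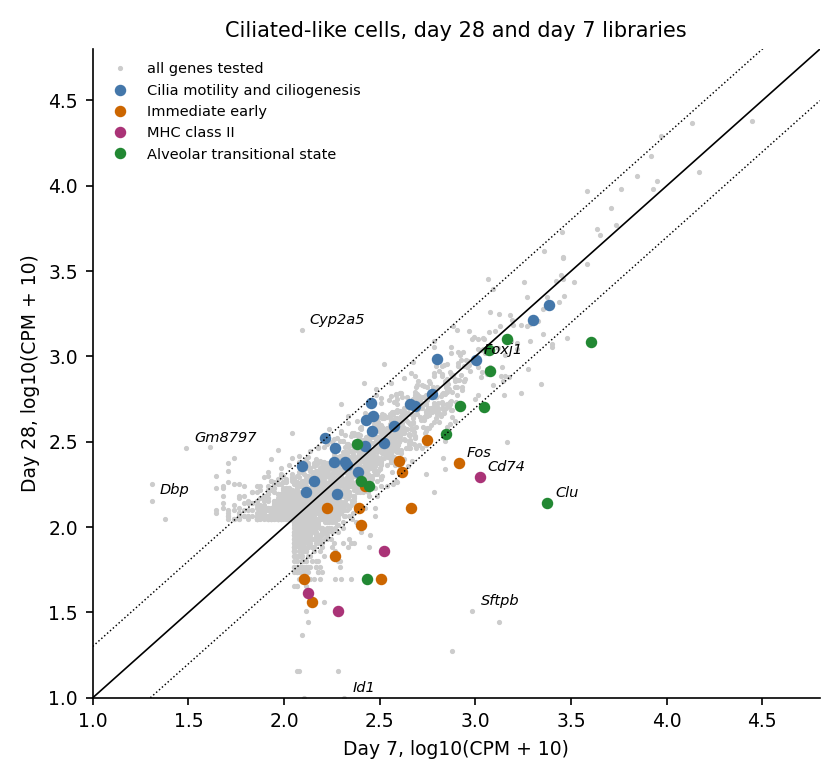
Level of each tested gene in ciliated-like cells at day 28 (y axis) against day 7 (x axis), both as log10(CPM + 10), with a solid line for equal levels and dotted lines for 2-fold differences. Cilia genes (blue) lie along the line, whereas immediate early genes (orange), MHC class II genes (purple) and Clu (2355 and 129 CPM) lie below it.

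Club secretory-like cells held one transcript above all others. Scgb1a1 (GRCm38, chr19:9083636-9087958, minus strand), the secretoglobin of club cells, took 63.8% of their UMIs in PBS, then 51.1%, 47.9% and 43.4% at days 3, 7 and 14, in 5, 1, 15 and 19 cells. Since levels are relative to all UMIs, so large a share of 1 gene lowers the CPM of the others. The group was mixed. At the finer resolution 10 of its 40 cells, 5 of day 7 and 5 of day 14, fell with 2 ciliated-like cells in an unnamed cluster that scored 0.673 on AT2 markers and -0.034 on secretory markers. Its leading genes were headed by the haemoglobin gene Hbb-bs and included the ciliogenesis genes Ccdc67 and Ccno and the cell cycle gene Top2a. Of the 10 cells, however, Hbb-bs was detected in 3, Ccdc67 in 1 and Top2a in 4. Scgb1a1 took 22.6% of the UMIs of these 10 cells, with a median of 9383 CPM in single cells, and 56.2% in the other 30 cells, with a median of 557774 CPM and a lowest value of 188705. Without the 10 cells the share was 57.8% at day 7 and 52.5% at day 14. Over all epithelial cells the share of UMIs from Scgb1a1 was 49.3% in PBS, then 24.5%, 14.4%, 13.0% and 5.998% at days 3, 7, 14 and 28. The other club cell genes were high in most cells of this group, with Scgb3a2 at 6148 CPM in 34 of 40 cells and Cbr2, a carbonyl reductase, at 5181 CPM in 37, whereas of the 10 cells just described 5 had a UMI of Scgb3a2 and 7 of Cbr2. Cyp2f2, the cytochrome P450 that activates naphthalene in club cells, was at 3301 CPM in PBS (2980 to 3648), 2195 at day 7 and 4011 at day 14, and without the 10 cells it was at 2668 and 5085 CPM at these 2 times. Retnla, a secreted resistin-like protein of type 2 responses, was at 85.7 CPM in PBS (41.1 to 158), 16699 at day 7 and 5437 at day 14, in 3 of 5, 14 of 15 and 17 of 19 cells. The Retnla intervals of the 3 libraries did not overlap, and the gene was among those that lead this cluster, so its level is a description.

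Bpifa1 secretory-like cells carried a second set of secreted proteins beside Scgb1a1, which took 30.9% of their UMIs. They were few in every library, with 2 cells in PBS, then 2, 11, 2 and 4 at days 3, 7, 14 and 28. Scgb3a1 was at 60408 CPM in 19 of 21 cells, the antimicrobial protein gene Bpifa1 (GRCm38, chr2:154142880-154149219, plus strand) at 21318 CPM in 19 and the C-type lectin gene Reg3g at 13502 CPM in 19. Bpifa1 was at 4.75 CPM in the club secretory-like cells, with UMIs in 3 of 40. The gel-forming mucin gene Muc5b was at 1165 CPM and Tff2, a trefoil factor, at 2176 CPM, whereas Muc5ac, the mucin of goblet cells, was at 35.7 CPM in 7 of 21 cells. Krt15, a keratin also made by basal cells, was detected in 9 of the 21 cells at 538 CPM.

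Day 14 was compared with day 7 in club secretory-like cells (19 and 15 cells) to ask how these cells differed between the inflammatory and the fibrotic phase. Of 841 genes tested, 87 (10.3%) were higher and 60 (7.13%) lower at day 14, but only 92 of the 147 were still called without the cell richest in each gene, and 31 of the lower ones. Without doublets, 54 were higher and 74 lower. Without the 10 cells that the finer resolution set apart (14 and 10 cells left), 83 of 643 genes tested were higher and 20 lower, and 49 of the 147 calls were shared. The calls shared included secretory genes. Of 16 genes of the Airway secretory list, 4 were higher at day 14 and none lower, namely the cytochrome P450 reductase gene Por (162 CPM at day 7 and 362 CPM at day 14, log2 ratio 1.16), Lypd2 (106 and 379 CPM, 1.84), the glutathione transferase gene Gsto1 (86.1 and 254 CPM, 1.56) and Tff2 (16.6 and 129 CPM, 2.97), and the same 4 were higher without the 10 cells. Tff2 then lay in 3 of 14 and 2 of 10 cells. Of 9 secretory markers tested, 1 was higher (Cckar, 1.23) and none lower, a count near the 10.3% of all genes tested that were higher. Their median was 0.76 against 0.11 over all genes tested. Without the 10 cells, 2 of 9 were higher (Cckar and Gabrp) and none lower. The median was then 0.63 against 0.29 over all genes tested. Spp1 (osteopontin) was at 66.2 and 454 CPM (2.78, 2.11 to 3.52) in 10 of 15 and 19 of 19 cells, and it was also higher in B cells (1.20) and in all other cells (2.01), and was at 2.52 without the 10 cells.

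Several other differences in this group were lost without the 10 cells. S100a6, a calcium-binding protein, was at 1678 CPM at day 7 and 176 CPM at day 14 (log2 ratio -3.25, -3.63 to -2.90), but 3 of the 10 cells held 503 of its UMIs at day 7, with up to 36159 CPM in 1 cell, and the other 10 club secretory-like cells of day 7 held 4, so that without them the log2 ratio was 1.36 and the interval included no change. Cryab, a small heat shock protein, was at 116 and 9.77 CPM (-3.57; -1.37 and not called without the 10 cells). The cell cycle gene Cdca3 (106 and 7.33 CPM) and Sprr1a (146 CPM in 2 of 15 cells at day 7 and no UMI at day 14) had no UMI in the other club secretory-like cells of these 2 times. Of 6 AT1 markers tested 4 were lower at day 14, and of 9 AT2 markers 4 were higher (Napsa, Sftpa1, Sftpc and Lpcat1) and 1 lower (Slc34a2), with a median of 0.82. Without the 10 cells, none of 3 AT1 markers tested was lower and 1 (Hopx) was higher, with a median of 0.84, and Hopx was not called without the richest cell. Of 7 AT2 markers then tested, Sftpa1 was higher (1.20) and Slc34a2 (-2.59) and Sftpc (-5.07) lower, of which Slc34a2 alone was still called without the richest cell. Of 3 MHC class I genes 3 were lower, and none of 3 without the 10 cells, where H2-K1 was at -0.13.

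Some of the highest ratios rested on 1 cell. The haemoglobin gene Hbb-bs had 3993 UMIs in club secretory-like cells of day 14 and none at day 7 (9.94 or higher against the limit of 3 UMIs), but 1 cell, which the doublet score did not mark, held 99.4% of the UMIs of the cluster. Hbb-bs was listed at 446 CPM in B cells of day 14 and at 0 in those of day 7. Hba-a2 (7.85 or higher) lay in 6 of 19 cells. The haemoglobin genes have near-identical copies, so that their single values are uncertain. Sftpc was at 7133 CPM at day 14 and 298 CPM at day 7 (4.58), of which 1 cell marked as a doublet held 83.0% of the UMIs in the cluster, and the log2 ratio was 3.30 without the richest cell and 1.99 without doublets, and was -5.07 without the 10 cells, a value not called without the richest cell (65 UMIs in 4 of 10 cells at day 7, with up to 3662 CPM in 1 cell). Gm42418, which overlaps ribosomal RNA sequence, was higher (2.24) here and in B cells (1.58), and the ribosomal protein pseudogene Gm10076 lower (-3.69) here and in B cells (-4.26).

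The alveolar cluster joined AT1-like and AT2-like cells. Ager (GRCm38, chr17:34597862-34600936, plus strand), the receptor gene that marks AT1 cells in lung, was detected in all 36 cells of the cluster, from 361 to 23157 CPM in single cells with a median of 1582. Sftpc (GRCm38, chr14:70520949-70524081, minus strand) was detected in 23 of the 36 cells. In 21 of the 36 cells both Ager and Sftpc had at least 2 UMIs, and 3 of these 21 were marked as doublets; over all 247 cells there were 35 such cells. At the finer resolution, 22 cells were AT1-like (10 at day 14 and 12 at day 28, with 1 cell of the Igfbp6 Sbsn cluster among them) and 15 were AT2-like (2 in PBS, 1 at day 7, 3 at day 14 and 9 at day 28). No AT1-like cell was found among the 107 cells of day 7, which allows a share of up to 3.39% for counting error under this clustering alone. Named one by one by their own markers, 11 of the 107 cells took the AT1 name, and 9 of all cells so named lay in the Ctgf Fn1 cluster.

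AT1-like cells had Ager at 2709 CPM at day 14 (2482 to 2951) and 4116 CPM at day 28 (3829 to 4419), without overlap of the intervals. Hopx, a homeodomain cofactor of AT1 cells, was at 1145 and 1858 CPM, and the water channel gene Aqp5 at 996 and 837 CPM with overlapping intervals. The membrane protein gene Emp2 was at 2631 CPM at day 14 and 1637 at day 28, and Gprc5a at 998 CPM over both libraries. None of these genes differed 2-fold between the 10 and 12 cells. Clu was at 10872 CPM at day 14 and 5915 CPM at day 28 in these cells.

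AT2-like cells had Sftpc at 35812 CPM over all 15 cells, and single cells ranged from 166 to 124746 CPM with a median of 19922. By library, Sftpc was at 55741 CPM in PBS (2 cells), 13877 at day 7 (1 cell), 56824 at day 14 (3 cells) and 21804 at day 28 (9 cells). The surfactant genes Sftpb, Sftpa1 and Sftpd were at 4879, 4044 and 3326 CPM, and the chemokine gene Cxcl15 at 1525 CPM. Ager, which B cells held at 3.94 CPM, was detected in all 15 AT2-like cells, at 697 CPM in PBS (413 to 1102), 1616 in the 1 cell of day 7 (1119 to 2258), 848 in the cells of day 14 (683 to 1040) and 1879 in those of day 28 (1677 to 2099). The interval of Ager at day 28 lay above those of PBS and day 14 and overlapped that of day 7.

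Day 28 was compared with day 14 in the alveolar cluster as a whole (20 and 13 cells), whose makeup differed, with 9 AT2-like cells of 20 at day 28 and 3 of 13 at day 14. Of 2041 genes tested, 112 (5.49%) were higher and 126 (6.17%) lower, with a median log2 ratio of 0.12, and 197 of the 238 were still called without the richest cell. Without doublets, 164 were higher and 220 lower. Of 10 AT2 markers tested, 3 were higher, namely the phosphate transporter gene Slc34a2 (2.80, 1.89 to 3.86), Sftpa1 (1.14) and the surfactant lipid enzyme gene Lpcat1 (1.11, not called without the richest cell), and none was lower. In the AT1-like cells of the cluster alone (11 and 10 cells), 198 of 2211 genes were higher and 244 lower, 160 of the 238 calls were shared, and 6 of 9 AT2 markers were higher. Among these, Slc34a2 was at 341 CPM in 4 of 11 cells at day 28 and had no UMI in the 10 cells of day 14, and Sftpa1 was at 1430 and 15.5 CPM in 5 of 11 and 2 of 10 cells. Of 10 AT1 markers over the whole cluster, Gprc5a was higher (1.008; 0.77 and not called in AT1-like cells alone) and Rtkn2 lower (-1.36; not called without the richest cell). Immediate early genes were called in neither direction in 15 tested, nor were junction genes in 12, whereas in AT1-like cells alone Fos was higher and Cdh1 lower. None of 3 MHC class II genes was called in the whole cluster. In AT1-like cells alone 3 of 3 were higher (H2-Ab1, H2-Aa and Cd74, median 2.45), also without the richest cell. Of 17 transitional genes, 3 were higher and 1 lower in the whole cluster. In AT1-like cells alone none of 17 was higher and 3 were lower (Itgb6, Tm4sf1 and Nupr1). The selenium-binding protein gene Selenbp1 was at 162 CPM at day 14 and 1388 CPM at day 28 (3.098, 2.67 to 3.55) in 11 of 13 and 17 of 20 cells, and the carboxylesterase gene Ces1d at 3.31 and 186 CPM in 1 and 10 cells (5.81). Cbr2 was at 9.92 and 563 CPM in 3 and 9 cells (5.83), and Sprr1a at 66.2 and 669 CPM (3.34; 2.02 without the richest cell). These genes were close to level or lower in all other cells, where the log2 ratios were -0.59 for Selenbp1, -0.12 for Ces1d, -0.86 for Cbr2 and -1.44 for Sprr1a. In B cells they were -0.10 for Selenbp1, 0.99 for Ces1d and 0.85 for Cbr2. In AT1-like cells alone Selenbp1 (3.29), Ces1d (6.05) and Cbr2 (6.56) were higher as well, whereas Sprr1a had no UMI in 11 cells at day 28 and 18 UMIs in 4 of 10 cells at day 14. Gm8797 was again higher (6.79), as in B cells (3.37).

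Genes lower at day 28 in the alveolar cluster were led by Ly6a (Sca-1), a surface protein of progenitor and interferon-exposed cells, at 1601 CPM at day 14 and 130 CPM at day 28 (-3.63, -4.11 to -3.18), in 12 of 13 and 7 of 20 cells. In B cells Ly6a was higher at day 28 (3.62), in all other cells it was lower (-1.56), and in AT1-like cells alone its log2 ratio was -3.41. Tnip3, an inhibitor of NF-kB signalling, was at 275 and 23.6 CPM (-3.54), the insulin-like growth factor receptor gene Igf1r at 261 and 26.5 CPM (-3.30, -4.48 to -2.30) in 11 of 13 and 5 of 20 cells, the protease gene Prss23 at 119 and 8.84 CPM (-3.75) and the zinc finger gene Tshz1 at 417 and 85.5 CPM (-2.29). In B cells the log2 ratios were 0.06 for Tnip3, -0.35 for Igf1r and 0.31 for Tshz1, and in all other cells they were -1.30 for Tnip3, -0.41 for Igf1r, -0.71 for Prss23 and -0.24 for Tshz1. Of secretory markers 4 of 6 tested were higher at day 28, but 1 cell of day 28 held 92.2% of the Scgb1a1 UMIs and 98.97% of the Scgb3a2 UMIs of the cluster, and Cbr2 alone was called without the richest cell.

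The Ctgf Fn1 cluster held the highest level of the Alveolar transitional state list, 20 genes of the keratin-rich states between AT2 and AT1 cells. Their summed level was 55354 CPM, against 32530 CPM in the Ddit3 Vnn1 cluster, 20696 CPM in AT1-like cells, 19831 CPM in AT2-like cells and 2734 CPM in B cells. Cyr61 and Itgb6 of this list are among the genes that lead the cluster. Clu (GRCm38, chr14:65968483-65981547, plus strand) was at 15869 CPM in 29 of 31 cells, S100a6 at 14777 CPM in 31, Krt19 at 3079 CPM in 30 and Cldn4, a tight junction claudin, at 1094 CPM in 30. Krt8 (6339 CPM) and Krt18 (5642 CPM) were highest here too, but both were used in the choice of cells. Ager was detected in 26 of the 31 cells at 1244 CPM, with a median of 330.5 CPM in single cells against 2667 CPM in AT1-like cells. Sftpc was at 64.5 CPM in 16 cells, and at 64.3 CPM in the B cells of day 7, and 6 of the 31 cells had at least 2 UMIs of it, with up to 500.5 CPM in single cells. The mesothelial gene Msln had a median of 95.6 CPM in single cells, up to 7110 CPM, against a median of 0 in the Igfbp6 Sbsn cluster. The mesothelial list scored 0.0777 here and 0.811 in the Igfbp6 Sbsn cluster.

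The Growth factors and cytokine ligands list of 33 genes scored 0.480 in the Ctgf Fn1 cluster. The list includes genes that lead this cluster, such as Cyr61, so that its score and sum follow in part from the clustering and are a description. With these genes included it summed to 6735 CPM, against 4808 CPM in AT2-like cells, 3523 CPM in AT1-like cells and 1979 CPM in the Igfbp6 Sbsn cluster. Ctgf (GRCm38, chr10:24595442-24598683, plus strand) and Cyr61, matricellular proteins that are targets of YAP, were at 766 CPM in 18 of 31 cells and 1196 CPM in 25; both are among the genes that lead the cluster, as are Pdgfb and Itgb6, and their levels are a description. The EGF receptor ligand gene Areg was at 1644 CPM, the endothelin gene Edn1 at 421 CPM and the platelet-derived growth factor gene Pdgfb at 248 CPM. Median Areg in single cells was 485 CPM here, 702 CPM in AT2-like and 495 CPM in AT1-like cells, so that Areg was not particular to this cluster. In the same order, the medians were 143, 66.4 and 0 CPM for Edn1 and 139, 0 and 0 CPM for Pdgfb. Itgb6, the integrin subunit that activates latent TGF-beta, was at 411 CPM in 26 of the 31 cells, against 166 CPM in AT1-like cells and 37.4 CPM in the Ddit3 Vnn1 cluster. Single cells of the cluster ranged from no UMI to 1836 CPM of Itgb6 with a median of 260. Of the 31 cells, 25 came from day 7, 3 from day 14 and 3 from day 28, and none was marked as a doublet. The levels of this cluster therefore rest mostly on the day 7 library and cannot be fully separated from it.

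**Figure D5:**
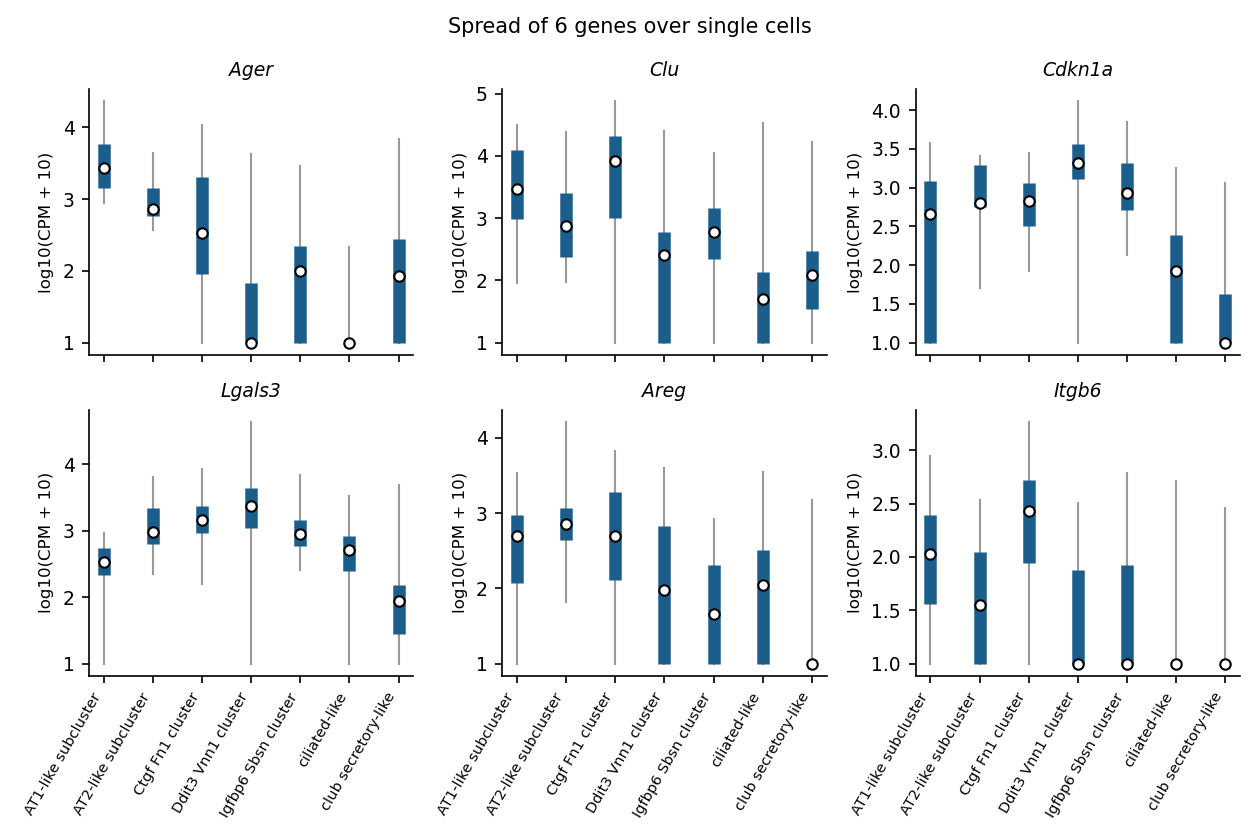
Level of 6 genes over the single cells of 7 clusters, as log10(CPM + 10) on the y axis, with a circle for the median, a bar from the lower to the upper quartile and a line from the lowest to the highest cell. Median Ager is highest in AT1-like cells (2667 CPM), median Clu and Itgb6 in the Ctgf Fn1 cluster (8391 and 260 CPM), and median Cdkn1a and Lgals3 in the Ddit3 Vnn1 cluster (2076 and 2339 CPM).

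The Ddit3 Vnn1 cluster scored high on the p53 targets list (0.746) but not on the Oxidative stress list (-0.026, against 0.314 in ciliated-like cells). Cdkn1a (GRCm38, chr17:29090976-29100727, plus strand), the p53 target that encodes the cell cycle inhibitor p21, was at 2651 CPM in 35 of 36 cells, with a median of 2076 CPM in single cells. The median was 661 CPM in the Ctgf Fn1 cluster and 74.9 CPM in ciliated-like cells. The 18 genes of the p53 targets list summed to 7272 CPM, against 2755 CPM over all epithelial cells and 1501 CPM in B cells, and among them Gdf15, a stress-induced cytokine, was at 471 CPM and Mdm2, the inhibitor of p53, at 365 CPM. Nupr1, a stress-induced nuclear protein, was at 4216 CPM in 23 of the 36 cells, and Ddit3 (CHOP), a transcription factor of the unfolded protein response, at 329 CPM in 25. Ager was at 166 CPM and no lineage list scored above 0.0540, so these cells were left without a lineage. The p53 targets were also high in the Igfbp6 Sbsn cluster, with a sum of 5042 CPM.

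Day 14 was compared with day 7 in the Ddit3 Vnn1 cluster (10 and 22 cells). Of 2183 genes tested, 341 (15.6%) were higher and 119 (5.45%) lower at day 14, with a median log2 ratio of 0.24, and 278 of the 460 were still called without the richest cell (194 of them higher). Immediate early genes were higher at day 14 in 9 of 15 tested (median 1.03), 7 of them without the richest cell, and none was lower. Among them, Klf6 was at 466 CPM at day 7 and 1318 CPM at day 14 (1.501, 1.19 to 1.81), Ier3 at 152 and 659 CPM (2.12), and Egr1 at 76.0 and 324 CPM (2.09), with log2 ratios in B cells of -0.19, -0.67 and 0.20. The heat shock gene Hspa1b was at 82.6 and 2186 CPM (4.73; 2.97 without the richest cell and 1.70 without doublets) and its near-identical neighbour Hspa1a at 69.4 and 807 CPM (3.54; 1.48 without doublets), so that reads of the pair may be split. The matrix protease inhibitor gene Timp3 was at 52.9 and 494 CPM (3.23) in 6 of 22 and 5 of 10 cells. A330069E16Rik (6.07) and Snhg11 (3.40 or higher) lay in 2 cells of day 14.

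Of 7 AT1 markers tested, 4 were lower, namely Hopx (241 CPM at day 7 and 71.4 CPM at day 14, -1.76), Gprc5a (816 and 373 CPM, -1.13), Aqp5 (370 and 132 CPM, -1.49) and Ager (261 and 43.9 CPM, -2.57), all 4 also without the richest cell, and Vegfa was higher (1.07), with a median of -1.13. Of 5 AT2 markers 3 were lower, of which Napsa and Sftpa1 were called without the richest cell. Of 17 transitional genes tested in this cluster, 6 were lower at day 14 and 2 higher (Cyr61 and Hbegf), all of them also without the richest cell, with a median of 0.05. The lower ones included Krt7 (1728 CPM at day 7 and 363 CPM at day 14, -2.25), Nupr1 (5623 and 1554 CPM, -1.85), Lgals3 (7027 and 2120 CPM, -1.73) and Clu (4331 and 1318 CPM, -1.72). In all other cells Lgals3 had a log2 ratio of 0.50 and Nupr1 of -1.17. The interferon-responsive gene Ly6e was at 575 and 71.4 CPM (-3.01, -3.95 to -2.20) in 19 of 22 and 6 of 10 cells, with -1.07 in B cells. Of 13 p53 targets tested, 3 were higher at day 14 (Trp53inp1, Sesn2 and Gdf15), of which Sesn2 was called without the richest cell, and none was lower. Since 15.6% of all genes tested were higher, this count does not set the p53 targets apart. Cdkn1a was at 2286 CPM at day 7 (2119 to 2463) and 3076 CPM at day 14 (2826 to 3342). Scgb1a1 was lower at day 14 (-7.22), but 1 cell of day 7 held 98.3% of its UMIs in the cluster, and the log2 ratio was -1.19 without the richest cell. Psca (-6.07 or lower) lay in 2 cells of day 7, Sftpa1 (-3.55) in 3 of 22 and 1 of 10 cells, and Gm10076 was lower (-5.61) here and in B cells (-4.26).

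The Igfbp6 Sbsn cluster held 2 kinds of cells. Many UMIs of its leading genes came from 4 cells, 2 of day 7 and 2 of day 28, which had UMIs of at least 2 of the mesothelial markers Wt1, Upk3b, Lrrn4 and Gpm6a. In these 4 cells the insulin-like growth factor binding protein gene Igfbp6 was at 8076 CPM, the matrix proteoglycan gene Dcn at 7941 CPM, the complement gene C3 at 9316 CPM and the mesothelial gene Msln at 1272 CPM, while Epcam was at 93.1 CPM and Cdh1 at 20.7 CPM. In the other 26 cells, Igfbp6 was at 56.8 CPM, Dcn had no UMI, and Epcam and Cdh1 were at 1123 and 612 CPM. The choice of cells used Epcam but not Cdh1, which was detected in 25 of the 26 cells and in 2 of the 4. Of the leading genes, Gm26870 was higher in the 26 cells (1696 against 51.7 CPM), and the extracellular matrix gene Ecm1 was at 927 CPM in the 26 cells and 1106 CPM in the 4. The 26 cells, 20 of them from day 14, had Cdkn1a at 1543 CPM in all 26, the EGF receptor ligand gene Hbegf at 818 CPM in 24 and the urokinase receptor gene Plaur at 279 CPM in 20. The non-coding gene Gm26870 was at 1696 CPM in 18 cells, and Ager at 374 CPM in 17.

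Neuroendocrine-like cells were 1 of 4 cells at day 3, 6 of 107 at day 7 (5.61%, 2.09 to 11.8) and 1 of 74 at day 14, and no such cluster formed at a resolution of 0.5 or with doublets removed. Calca (GRCm38, chr7:114631478-114636357, minus strand), which encodes the peptides calcitonin and CGRP, was detected in all 8 at 9814 CPM, from 3479 to 18744 CPM in single cells, and in no club secretory-like or alveolar cell. Resp18, a protein of the secretory granule pathway, was at 4053 CPM in 8 of 8 cells and the granule protein gene Chga at 397 CPM in 7. The 16 genes of the Immediate early list summed to 25321 CPM in these cells, led by Egr1 (3622 CPM), against 5741 CPM over all epithelial cells and 8396 CPM in B cells. Of leukocyte genes, the 6 pan-leukocyte markers scored 0.715 and summed to 742 CPM, led by Tyrobp (276 CPM), and 1 cell held 74 of their 86 UMIs. The 5 neutrophil markers scored 0.804 and summed to 276 CPM, led by S100a8 (216 CPM), with 30 of 32 UMIs in 1 cell and no UMI of Retnlg. A doublet score marked 1 of the 8 cells, and the part of RNA from leukocytes in the results for these cells was not tested.

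Few epithelial cells were cycling. At least 3 of Mki67, Top2a, Cdk1, Birc5 and Ccnb1 had UMIs in 8 of 247 cells, of which 5 came from day 7 and 3 from day 14, and 5 lay among club secretory-like cells. Within that group, Top2a had 34 UMIs in 4 of the 10 cells that the finer resolution set apart. The other 30 cells held 2 UMIs of Top2a, in 2 cells, so that the 5 cells do not describe club cells as a whole. Both Scgb3a2 and Foxj1 had at least 2 UMIs in 12 cells, 9 of them ciliated-like and 2 of the 12 marked as doublets. Genes of early ciliogenesis were rarer, with Ccdc67 (Deup1) and Ccno together in 4 cells, 2 at day 7 and 2 at day 14.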

How the data were processed

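Lung cells of 5 libraries were sequenced with a droplet 3′ kit, and per the labels the authors made the deposited UMI counts with Cell Ranger 6.0.0 on mm10 (the matrix headers give software version 3.1.0). The deposited counts per gene and barcode were raw. Depth ranged from 89769386 to 167506186 UMIs per library. Barcodes were kept where they had from 300 to 8000 genes, from 800 to 60000 UMIs and less than 15% of UMIs from mitochondrial genes, which left 44772 of 52800 barcodes, and epithelial cells were chosen by raw UMIs. Of 28693 features, 28416 matched the GRCm38 annotation. Columns of samples left unused numbered 0. Doublets were scored with Scrublet (0.8% per 1000 barcodes), marked and kept.

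Cells were scaled to 10000 UMIs and clustered on 3000 variable genes, 30 components and 20 neighbours (Leiden, resolution 1) with Python 3.11.15, scanpy 1.11.5, anndata 0.12.19, leidenalg 0.10.2, numpy 2.4.6, scipy 1.17.1, pandas 2.3.3 and matplotlib 3.10.9. A cluster took a lineage name from a marker score of at least 0.4 and at least 3 markers each found in 25% of its cells, limits that were set after the clusters were seen. Clusters that met these limits were left unnamed where their 10 leading genes held more markers of other lineages than of their own. The alveolar cluster held 2 AT1 markers there and 3 markers of other lineages. The unnamed finer cluster with an AT2 score of 0.673 held 0 and 1. B cells had at least 2 UMIs of Cd79a, at least 1 of Ptprc and none of Epcam. Levels are UMIs summed over cells per 1e+06 UMIs (CPM). Shares have exact binomial, levels exact Poisson and ratios conditional exact intervals at 95%, all for counting error only. Where a library had no UMI of a gene, the ratio was bounded with 3 UMIs over the group. The ratio calculation was tested on simulated data with counting error alone. The simulation held no variation between cells, so it cannot show how the intervals do where single cells differ.

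The comparison of each bleomycin library with PBS within a lineage needed 20 cells in PBS, which no lineage had. Later and earlier libraries were compared instead in clusters with at least 10 cells in both, a choice made after seeing the data. Named genes are the 5 highest and 5 lowest that were called both with and without the richest cell, ranked by the interval limit nearest to no change (a rule also set after values were seen), members of the lists, and the 5 most abundant genes of each lineage list. Genes that describe the clusters beyond these were chosen after their values were seen. The members and lists were chosen with earlier results of these data known. Alternatives changed the Epcam, leukocyte, mitochondrial, UMI, doublet, resolution, naming, scaling and CPM choices and, after seeing the data, the cells used within 3 clusters. Values of some genes are not reported here.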

Additional observations from a re-analysis of the deposited data

How the results depend on the processing

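No paired analysis was possible because each time had 1 library and no replicate number. With no limit on Ptprc and Cd68, the epithelial share was 0.292% in PBS, then 0.137%, 2.80%, 2.38% and 0.944% at days 3, 7, 14 and 28, and the ciliated-like share of day 7 was 10.9%. With cells reduced to 2000 UMIs the epithelial share was 0.0349% in PBS, then 0.527%, 0.486% and 0.161% at days 7, 14 and 28. With the day 7 minimum of UMIs applied to every library it was 1.27% at day 14 and 0.671% at day 28. With 1 Epcam UMI it was 1.38% at day 7, where the secretory-like share was then 33.6%. The alveolar share of day 7 was 6.54% at resolution 2 and 14.95% with cells named one by one. No neuroendocrine-like cluster formed at resolution 0.5 or without doublets, so its share was 0% at day 3, day 7 and day 14; the cause was not tested.

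Counts of genes called grew as the limit on CPM was lowered, since more genes were tested. With 50 CPM and with no limit, the Ddit3 Vnn1 cluster had 587 and 775 higher and 198 and 254 lower, the alveolar cluster 202 and 308 higher and 280 and 464 lower, ciliated-like cells 197 and 271 higher and 271 and 379 lower, and club secretory-like cells 224 and 429 higher and 127 and 256 lower. Without the richest cell, 194 were higher in the Ddit3 Vnn1 cluster and 31 lower in club secretory-like cells. Without doublets, 220 were lower in the alveolar cluster and 54 higher in club secretory-like cells; the cause was not tested. In AT1-like cells alone, 198 were higher and 244 lower in the alveolar cluster, and without the 10 cells set apart at the finer resolution 20 were lower in club secretory-like cells, where Sftpc (-5.07, not called without its richest cell) and S100a6 (1.36, with an interval that includes no change) reversed in sign; those 10 cells held most S100a6 UMIs of day 7 and most Sftpc UMIs of day 14. Of the other values of these kinds, 184 stayed within their limits. Of the values of single named genes under these alternatives, 193 stayed within their limits, 19 moved and 2 reversed. The UMI floor and the naming of cells one by one were not run for gene comparisons.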

Other observations

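Interferon-stimulated genes were highest at day 3, in 4 cells. The genes of the Interferon-stimulated list summed to 10505 CPM there, against 238 CPM in PBS and 2552 CPM at day 7, and in B cells of the same libraries they summed to 6429.9, 724 and 1599 CPM. With 4 epithelial cells at day 3 these are values of those cells and no more.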
